A study of Oryza sativa Japonica Group with 20 samples.

Results

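The comparison set shoots of rice seedlings exposed to 80 µM sodium arsenite for 6 h against untreated shoots taken at 0 h. Its members were the loci with an expression value of 5 RPKM or more in either of these 2 mRNA libraries, which were 13936 of the 57624 loci in the tables. RPKM is a read count scaled to transcript length and to the size of the library. The change of a locus was taken as log2 of (RPKM + 1) at 80 µM and 6 h over (RPKM + 1) untreated, and fold changes are on the same scale, which understates the change of low loci. A locus was called higher or lower where this change was 2-fold or more.

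The series covers roots and shoots of the japonica cultivar Nipponbare, with messenger RNA and microRNA sequenced from each of the 10 combinations of tissue, dose and time, in 20 libraries. All plants were 14-day-old seedlings grown in diluted Hoagland solution in a greenhouse, and arsenite was added at lights-on. The untreated plants were taken at that moment and the plants of the 80 µM 6 h group 6 h into the light, so that the 6 h of arsenite and the 6 h of daylight cannot be told apart. Each group had 1 library, so no difference here has a replicate check, no test was made, and the labels do not say how many plants went into a library. The microRNA libraries were not analysed here.

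Arsenite is a trivalent form of arsenic that enters rice roots through channels for silicic acid and binds to the thiol groups of proteins. Plant cells are known to answer misfolded protein with heat stress transcription factors, which switch on small heat shock proteins and larger chaperones. They trap arsenite with thiol peptides made from glutathione, and store the complexes in the vacuole. Much of the arsenic that rice takes up stays in the root, so that leaves usually meet less of it than roots do.

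The 2 libraries were alike in their totals. Their RPKM values summed to 330325.5 untreated and 329453.7 at 80 µM and 6 h, with 12248 and 12158 loci at 5 RPKM or more, and 10470 loci at that level in both. Absolute depth is unknown. The RPKM value that 1 read stands for in the treated library was estimated at 0.946 times that in the untreated one. This rough estimate is the most frequent ratio between the low values of the same loci in the 2 libraries. Shoot identity was checked with leaf markers: RCA, the activase of Rubisco, stood at 834.6 RPKM untreated and 756.6 RPKM at 80 µM and 6 h, and the chlorophyll-binding protein gene CAB2R at 283.7 and 458.0 RPKM. Root markers were low or absent. The silicon exporter gene LSI2 and the nitrate transporter gene NRT2.1 were listed at 0 in both, NAR2.1 stood at 1.4 RPKM untreated and was listed at 0 at 80 µM and 6 h, YSL15 stood at 0.4 RPKM and was listed at 0, IRT1 stood at 0.2 and 0.3 RPKM, and NIP2-1 at 7.1 and 4.3 RPKM.

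The treated library had 1307 loci higher (9.38% of those considered) and 1752 lower (12.6%). The median change over all 13936 loci was 0.03 on the log2 scale, the middle 50% of loci lay between −0.50 and 0.48, and 78.0% stayed within 2-fold. At 4-fold, 251 loci were higher and 506 lower. Loci with a higher value of 50 to 200 RPKM were lower in 17.0% of cases, while those at 200 RPKM or more were higher in 15.0% and lower in 11.1%. Of the members, 84 were listed at 0 in the untreated library and 192 at 80 µM and 6 h, and for these no fold is given. The limit of 5 RPKM just included SPX3 (5.1 RPKM untreated and 3.9 RPKM treated) and HMA5 (2.8 and 5.2 RPKM), and just left out ERS2 (4.9 and 4.5 RPKM), RR4 (4.9 and 2.6 RPKM) and RAB16D (4.9 RPKM and listed at 0). There were 143 loci whose higher value was exactly 5 RPKM and 130 at 4.9 RPKM. A further limit of the filter is that 1688 loci reached 5 RPKM only at 80 µM and 6 h and 1778 only untreated. A gene that is low in the other library enters only by being high in 1 of them, so the counts and medians of the groups below describe their members and are no support for a direction. The number of members admitted in this way is given where it bears on a count. Each count of group members against untreated shoots is to be read beside the shares of all loci, 9.38% higher and 12.6% lower. A count near these shares says little about its group.

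The other shoot libraries give a second view of each gene, with a caution about their labels. In the deposited files of the 2 shoot libraries at 20 µM, the one labelled 6 h carries the code of the 24 h library and the other way round. Below, "the library labelled 20 µM 6 h" and "the library labelled 20 µM 24 h" keep the sample labels. Where 3 further values follow those of the compared pair, they are those of the library labelled 20 µM 6 h, the library labelled 20 µM 24 h and the 80 µM 24 h library, in this order.

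Clock genes differed between the pair. The plant clock runs on a dawn factor, LHY, and on day and evening genes such as GI and the pseudo-response regulators (PRR), which repress LHY in turn. LHY (LOC_Os08g06110) stood at 114.6 RPKM untreated and 48.8 RPKM at 80 µM and 6 h, 2.32-fold lower, and at 121.1, 45.8 and 248.1 RPKM in the other shoot libraries. GI (LOC_Os01g08700) stood at 18.5 and 98.4 RPKM, 5.10-fold higher, and at 26.5, 77.3 and 3.1 RPKM in the others. For both genes the 80 µM 6 h shoots stood near the library labelled 20 µM 24 h, and the untreated shoots near the one labelled 20 µM 6 h.

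Of 6 day and evening clock genes, 5 were higher and none lower, against 9.38% and 12.6% of all loci. Their median log2 change was 1.63. PRR1 stood at 5.2 and 28.2 RPKM, 4.71-fold higher, PRR95 at 10.9 and 44.4 RPKM, 3.82-fold higher, PRR37 at 7.1 and 19.4 RPKM, and PRR73 at 24.5 and 56.6 RPKM. ELF3, a part of the evening complex, stood at 23.5 and 20.7 RPKM. As a readout of hour, the log2 level of LHY minus the mean of these 6 genes was 3.05 untreated and 0.36 at 80 µM and 6 h. The library labelled 20 µM 6 h had 3.09, the one labelled 20 µM 24 h had 0.36, and shoots at 80 µM and 24 h had 5.35. In roots the same readout was 2.04 untreated. The 20 µM roots had −0.58 after 6 h and 1.78 after 24 h. The 80 µM roots had −0.68 after 6 h and −0.49 after 24 h, so at this dose the root readout did not follow the hour of day. Whether it follows the hour in treated shoots was not tested. By this readout the 80 µM 6 h shoots stood with the library labelled 20 µM 24 h. The untreated shoots stood with the one labelled 20 µM 6 h. If the readout follows the hour in shoots, this goes against both 20 µM labels but not that of the 80 µM 6 h library.

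**Figure D1:**
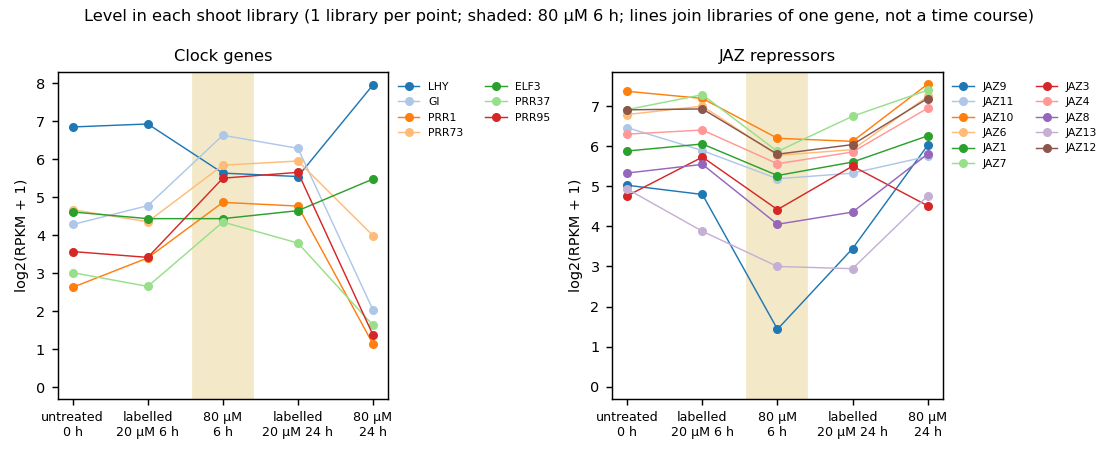
Level of clock genes (left) and JAZ repressors (right) in the 5 shoot libraries, as log2(RPKM + 1), with 1 library per point and the 80 µM 6 h library shaded. LHY stands low and GI, PRR1, PRR73 and PRR95 high in the 80 µM 6 h shoots and the library labelled 20 µM 24 h, and JAZ9 is lowest at 80 µM 6 h.

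The same loci were set against the 20 µM libraries as well. Against the library labelled 20 µM 6 h, 1788 of 13805 loci were higher at 80 µM and 6 h (13.0%) and 1656 lower (12.0%). Against the library labelled 20 µM 24 h, which has the nearly equal clock readout, 1100 of 13518 loci were higher (8.14%) and 951 lower (7.04%). Shoots at 80 µM and 24 h, set against the same untreated library, had 1192 of 13030 loci higher (9.15%) and 3920 lower (30.1%). In roots at 80 µM and 6 h, against untreated roots, 2648 of 13959 loci were higher (19.0%) and 6794 lower (48.7%).

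Small heat shock protein genes stood higher at 80 µM and 6 h in all 9 that reached 5 RPKM, against 9.38% of all loci. Their median log2 change was 1.70, against 0.03 for all loci. Of these 9, 5 reached 5 RPKM only in the treated library and entered through it. The 4 at 5 RPKM or more in both libraries (HSP18.0, HSP17.9A, HSP17.7 and HSP24.1) were all higher, with a median of 1.56. These proteins hold unfolding proteins in solution until larger chaperones refold them. HSP17.4 (LOC_Os03g16020) stood at 2.0 RPKM untreated and 57.3 RPKM at 80 µM and 6 h, 19.4-fold higher, and at a listed 0, 2.5 and 4.1 RPKM in the other shoot libraries. HSP18.1 (LOC_Os03g16030) stood at 1.9 and 19.9 RPKM, 7.21-fold higher, and at a listed 0, 2.3 RPKM and a listed 0 in the others. The 80 µM 6 h library thus held the highest value of both genes among the 5 shoot libraries.

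The members above 5 RPKM untreated as well included HSP18.0, HSP17.9A and HSP24.1. HSP18.0 (LOC_Os01g08860), the highest of the group, stood at 38.9 and 100.8 RPKM, 2.55-fold higher, and at 2.1, 24.4 and 4.5 RPKM in the others. HSP17.9A stood at 23.6 and 78.9 RPKM, 3.25-fold higher, with 10.1, 23.3 and 9.2 RPKM in the others. HSP24.1, a member targeted to mitochondria, stood at 12.1 and 53.4 RPKM, 4.15-fold higher, with 2.8, 15.4 and 3.1 RPKM in the others. In each of these 3 the untreated library was above the library labelled 20 µM 6 h and below the 80 µM 6 h library.

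The remaining members were HSP16.9A (2.2 and 12.5 RPKM), HSP16.9B (3.3 and 10.5 RPKM), HSP17.7 (11.8 and 33.3 RPKM) and HSP26.7, a plastid member (3.0 and 7.0 RPKM). HSP16.9C (2.4 RPKM and a listed 0) and HSP23.2 (1.0 and 3.8 RPKM) did not reach 5 RPKM. Several of the members on chromosomes 1 and 3, though not all, lie near each other and are close copies. Reads may be split between these in ways not known here. Against the library labelled 20 µM 6 h, 9 of 9 were higher (13.0% of all loci) with a median of 3.52. Of these, 8 reached 5 RPKM only at 80 µM and 6 h. Against the library labelled 20 µM 24 h 9 of 9 were higher (8.14% of all loci) with a median of 2.26. Of these, 6 reached 5 RPKM only at 80 µM and 6 h. At 80 µM and 24 h, 4 members were considered and all 4 were lower than untreated, against 30.1% of all loci. Their median was −1.52, and 3 of them reached 5 RPKM only untreated.

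Roots at the same dose and hour stood far above shoots in these genes. HSP17.4 went from 1.8 RPKM in untreated roots to 394.2 RPKM, HSP18.0 from 11.9 to 584.9 RPKM, and HSP24.1 from 17.1 to 453.9 RPKM. All 11 members were considered in roots and all 11 were higher, against 19.0% of root loci, with a median of 7.14, and 7 of them reached 5 RPKM only in the treated roots. The 4 heat shock genes of shoots with the highest values, at 53.4 to 100.8 RPKM, were thus below every one of the 11 root values, whose lowest was 163.2 RPKM.

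**Figure D2:**
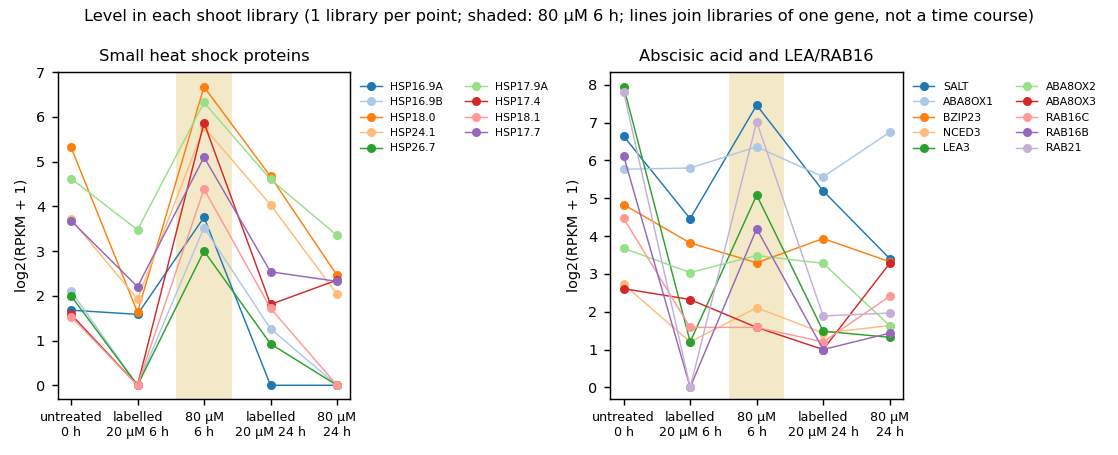
Level of 9 small heat shock protein genes (left) and 10 abscisic acid and LEA/RAB16 genes (right) in the 5 shoot libraries, as log2(RPKM + 1), with 1 library per point and the 80 µM 6 h library shaded. Each of the 9 heat shock genes is highest at 80 µM 6 h, while LEA3, RAB21 and RAB16B are highest in untreated shoots, next highest at 80 µM 6 h and low elsewhere.

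Of 3 larger chaperone genes considered, 1 was higher and none lower, with a median of 0.94. The median was 0.33 over all 10 loci of that list at 5 RPKM, names not checked included. HSP81-1 (LOC_Os08g39140), a cytosolic HSP90, stood at 45.4 and 96.1 RPKM, 2.09-fold higher, with 46.8, 58.5 and 34.5 RPKM in the others. HSP101 (LOC_Os05g44340), which pulls proteins out of aggregates, stood at 4.1 and 8.8 RPKM, 1.92-fold, and HSP81-2 at 25.6 and 34.1 RPKM. In roots HSP101 went from 0.2 to 141.8 RPKM at the same dose and hour.

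The heat stress transcription factors, which bind the promoters of these chaperones, went both ways. Of 11 considered, 2 were higher and 5 lower, against 9.38% and 12.6% of all loci, with a median of −0.56. All 7 called factors reached 5 RPKM in only 1 of the 2 libraries, and the median was 0.33 over the 3 factors at 20 RPKM or more and 0.04 over all 14 without a minimum. HSFA4b (LOC_Os01g54550) stood at 2.6 and 9.8 RPKM, 3.00-fold higher, and at 8.2, 11.8 and 2.3 RPKM in the others. HSFA2c stood at 4.4 and 11.8 RPKM, 2.37-fold higher, with 1.7, 3.7 and 3.7 RPKM in the others, and was highest at 80 µM and 6 h.

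Among the lower factors, HSFC2a (LOC_Os02g13800) stood at 30.4 and 4.5 RPKM, 5.71-fold lower, and at 3.3, 0.7 and 10.9 RPKM in the others. HSFA2d stood at 7.8 and 0.8 RPKM, 4.89-fold lower, with 4.6, 4.5 and 17.4 RPKM in the others. HSFB2c (5.8 and 1.4 RPKM), HSFA2b (6.3 and 2.2 RPKM) and HSFC1b (9.7 and 4.2 RPKM) were also lower. HSFA1, the highest factor at 80 µM and 6 h, stood at 26.7 and 33.8 RPKM. HSFA2a stayed below 5 RPKM in both shoot libraries (a listed 0 and 3.9 RPKM), whereas it stood at 44.5 RPKM in roots at 80 µM and 6 h. In roots 8 of 12 factors were higher and 1 lower, against 19.0% and 48.7% of root loci. Of the 12, 6 reached 5 RPKM only in treated roots, and of the 6 at that level in both, 2 were higher and 1 lower.

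Genes of abscisic acid, the hormone of drought and salt responses, and its LEA and RAB16 (dehydrin) targets were lower or little changed. Of 10 considered, 5 were lower and none higher, against 12.6% and 9.38% of all loci. The median was −0.91 (−1.54 over the 7 at 20 RPKM or more). Of the 10, 3 reached 5 RPKM only untreated. LEA3 (LOC_Os05g46480), which encodes a late embryogenesis abundant (LEA) protein, stood at 245.1 RPKM untreated and 32.9 RPKM at 80 µM and 6 h, 7.26-fold lower, and at 1.3, 1.8 and 1.5 RPKM in the other shoot libraries. RAB16B (LOC_Os11g26780) stood at 68.2 and 17.3 RPKM, 3.78-fold lower, and at a listed 0, 1.0 and 1.7 RPKM in the others. RAB21, a further dehydrin gene of the RAB16 cluster, stood at 223.0 and 128.9 RPKM, 1.72-fold lower, and at a listed 0, 2.7 and 2.9 RPKM. For these 3 genes the untreated library was highest, the 80 µM 6 h library came next, and no other shoot library was above 2.9 RPKM.

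The same genes were set against the 20 µM libraries. Against the library labelled 20 µM 6 h, 4 of 7 members were higher (13.0% of all loci) and none lower, with a median of 3.00. Against the library labelled 20 µM 24 h, 4 of 7 were higher (8.14% of all loci) and none lower, with a median of 2.27. In each of these counts 3 of the 7, LEA3, RAB16B and RAB21, reached 5 RPKM only at 80 µM and 6 h, and over the other 4 the medians were 0.50 and 0.50, with 1 higher. SALT, a lectin gene known from salt-treated rice, stood at 98.9 and 175.5 RPKM, and at 21.0, 35.6 and 9.6 RPKM in the others. RAB16C (21.1 and 2.0 RPKM, with 2.0, 1.3 and 4.3 RPKM in the others) was 7.37-fold lower. The RAB16 genes lie next to each other on chromosome 11 and resemble each other, so the split of reads among them is uncertain.

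The hormone's own metabolism changed less. NCED3, which makes its precursor, stood at 5.6 and 3.3 RPKM. ABA8OX1, a hydroxylase that breaks the hormone down, stood at 53.5 and 81.1 RPKM, ABA8OX2 at 11.8 and 10.2 RPKM, and ABA8OX3 at 5.1 and 2.0 RPKM, 2.03-fold lower. BZIP23, a transcription factor of this signalling path, stood at 27.5 and 8.8 RPKM, 2.91-fold lower, and at 13.1, 14.3 and 9.0 RPKM in the others. In roots at 80 µM and 6 h, 6 of 8 members were higher and none lower, against 19.0% and 48.7% of root loci. Of these 6, 5 reached 5 RPKM only in treated roots. They included LEA3 at 340.0 RPKM against 4.5 RPKM untreated.

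Of 9 listed genes of arsenic channels and detoxification, 4 had a checked name, and 3 of these were considered, with 1 lower and none higher. Their median was −0.61, and it was 0.04 over all 7 loci of that list at 5 RPKM, names not checked included. NIP2-2 (LOC_Os06g12310), known as Lsi6, unloads silicic acid from the xylem in rice leaves. It stood at 32.9 and 8.4 RPKM, 3.61-fold lower, and at 34.7, 20.6 and 51.0 RPKM in the other shoot libraries. The 80 µM 6 h library was the lowest of the 5. NIP1-1 stood at 26.7 and 50.3 RPKM, and at 40.6, 59.6 and 0.6 RPKM in the others. NIP2-1, known as Lsi1, stood at 7.1 and 4.3 RPKM. In roots NIP2-1 was at 59.7 RPKM untreated and 0.4 RPKM at 80 µM and 6 h.

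Phosphate genes are of interest because arsenate, though not arsenite, enters by phosphate transporters. None of 4 considered was higher or lower, with a median of −0.33 (0.26 over the 2 at 20 RPKM or more). PT1 (LOC_Os03g05620) stood at 46.9 and 91.0 RPKM, 1.92-fold, PT8 at 77.1 and 57.7 RPKM, and SPX1, a phosphate sensor protein gene, at 8.7 and 6.6 RPKM. A further 6 members, PT2, PT4, PT6, PHO1-2, SPX2 and SPX5, stayed below 5 RPKM in both libraries.

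Sulfur reduction supplies the cysteine of glutathione. APR1 (LOC_Os07g32570), which reduces activated sulfate, stood at 99.1 and 29.7 RPKM, 3.26-fold lower, and at 70.3, 27.7 and 34.1 RPKM in the others. The 80 µM 6 h value was close to that of the library labelled 20 µM 24 h. In roots APR1 went from 30.7 to 485.2 RPKM. GSTU6 (LOC_Os10g38740), a glutathione S-transferase of the tau class, stood at 48.6 and 103.7 RPKM, 2.11-fold higher, with 27.6, 49.5 and 18.5 RPKM in the others, and was highest at 80 µM and 6 h. In roots it went from 34.0 to 808.3 RPKM. GSH1-1, a gene of glutathione synthesis, stayed below 5 RPKM, at 1.8 and 2.7 RPKM.

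Of the iron genes, 5 of 9 were lower at 80 µM and 6 h, against 12.6% of all loci. Rice takes up iron with phytosiderophores, which are made from nicotianamine, and stores it in the vacuole. Among the 9 iron genes none was higher, all 9 had a negative change, and the median was −1.04, or −0.74 with a pseudocount of 5. Of the 9, 2 (NAS3 and VIT2) reached 5 RPKM only untreated. VIT2 (LOC_Os09g23300), a vacuolar iron importer, stood at 18.4 RPKM untreated and was listed at 0 at 80 µM and 6 h, and it was at a listed 0, 0.6 RPKM and a listed 0 in the others. VIT1 stood at 13.0 and 5.8 RPKM, 2.06-fold lower, with 6.9, 5.7 and 27.5 RPKM in the others. For VIT2 the untreated library stood above all 4 treated ones, and for VIT1 only the 80 µM 24 h library was above it.

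Nicotianamine synthase genes varied widely among the shoot libraries. NAS3 (LOC_Os07g48980) stood at 16.7 and 2.2 RPKM, 5.53-fold lower, with 5.3, 2.1 RPKM and a listed 0 in the others. NAS1 stood at 20.0 and 8.8 RPKM, 2.14-fold lower, and at 189.9, 4.1 and 45.8 RPKM in the others. NAS2 stood at 15.2 and 7.2 RPKM, 1.98-fold lower, and at 158.7, 5.4 and 25.7 RPKM in the others. NAS1 and NAS2 are neighbours of near-identical sequence, and their reads may be shared. Both were far higher in the library labelled 20 µM 6 h than in the other 4.

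IRO3 (LOC_Os03g26210), a regulator that restrains the iron-deficiency response, stood at 90.7 and 30.6 RPKM, 2.90-fold lower, and at 125.9, 46.0 and 151.6 RPKM in the others. NRAMP1 stood at 64.9 and 43.8 RPKM, NAAT1, the next enzyme towards phytosiderophores, at 13.1 and 7.4 RPKM, and IRT2 at 9.3 and 7.8 RPKM. Compared with the library labelled 20 µM 6 h, 6 of 8 iron genes were lower, against 12.0% of all loci, with a median of −1.72. Compared with the one labelled 20 µM 24 h, 1 of 8 was higher and none lower, against 8.14% and 7.04% of all loci. The median there was −0.17. Shoots at 80 µM and 24 h against untreated had 3 of 9 higher and 2 lower, against 9.15% and 30.1% of all loci, with a median of 0.72. Both lower genes reached 5 RPKM only untreated. Roots had 9 of 10 lower, against 48.7% of all root loci, with a median of −4.36, and all 10 reached 5 RPKM only in untreated roots.

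Zinc and copper genes had positive changes in all 6 considered, with a median of 0.78. Of these, 2 were higher and none lower, against 9.38% and 12.6% of all loci. Both higher genes, and HMA5, reached 5 RPKM only in the treated library, and the other 3 stayed within 2-fold. ZIP3 (LOC_Os04g52310), a zinc transporter, stood at 1.6 and 9.8 RPKM, 4.15-fold higher, and at 3.7, 6.8 RPKM and a listed 0 in the others. ZIP7 stood at 3.4 and 8.0 RPKM, 2.05-fold higher, with 3.1, 3.4 and 2.8 RPKM in the others, and ZIP8 at 17.5 and 32.4 RPKM. The metal pumps HMA4 (12.7 and 20.8 RPKM) and HMA9 (8.7 and 14.2 RPKM) stayed within 2-fold. HMA5, a copper pump of xylem loading, was at 5.2 RPKM in treated shoots and 282.6 RPKM in treated roots.

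Of the JAZ repressors, 8 of 11 were lower at 80 µM and 6 h, against 12.6% of all loci. JAZ proteins block jasmonate responses until the hormone receptor COI1 marks them for breakdown, and many JAZ genes are themselves induced by jasmonate. Among the 11 JAZ genes none was higher, all 11 had a negative change, and the median was −1.11. JAZ9 alone reached 5 RPKM only untreated. JAZ9 (LOC_Os03g08310) stood at 31.6 RPKM untreated and 1.7 RPKM at 80 µM and 6 h, 12.1-fold lower, and at 26.8, 9.9 and 63.9 RPKM in the other shoot libraries. JAZ13 stood at 29.5 and 7.0 RPKM, 3.81-fold lower, with 13.7, 6.7 and 26.1 RPKM in the others. JAZ10, the highest of the group, stood at 164.6 and 72.5 RPKM, 2.25-fold lower, with 145.5, 68.7 and 186.4 RPKM in the others.

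In these genes the 80 µM 6 h shoots were nearer to the library labelled 20 µM 24 h than to the one labelled 20 µM 6 h. Set against the library labelled 20 µM 24 h, 2 of 11 (JAZ9 and JAZ3) were lower and none higher, with a median of −0.29. The share of all loci lower there was 7.04%. Set against the library labelled 20 µM 6 h, 6 of 11 were lower, against 12.0% of all loci, with a median of −1.13. The other lower members were JAZ8 (39.3 and 15.6 RPKM), JAZ11 (87.3 and 35.5 RPKM), JAZ12 (119.3 and 54.8 RPKM), JAZ7 (119.8 and 57.5 RPKM) and JAZ6 (109.9 and 53.7 RPKM). JAZ1 (58.0 and 37.6 RPKM), JAZ4 (78.0 and 46.3 RPKM) and JAZ3 (26.2 and 20.4 RPKM) stayed within 2-fold. JAZ9, JAZ10 and JAZ11 are neighbours on chromosome 3, and reads may be shared among such copies. In the 80 µM 24 h shoots none of the 11 was higher or lower than untreated, against 9.15% and 30.1% of all loci. In roots at 80 µM and 6 h 5 of 12 were higher and 2 lower, against 19.0% and 48.7% of root loci.

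Jasmonate synthesis and perception stayed near untreated levels, with 1 of 9 lower, none higher and a median of −0.12. AOS2 (LOC_Os03g12500), an allene oxide synthase at the entry of the pathway, stood at 34.9 and 14.9 RPKM, 2.26-fold lower, and at 50.0, 34.0 and 29.1 RPKM in the others, so that 80 µM 6 h was the lowest. AOS1 stood at 35.7 and 28.4 RPKM, AOC at 62.2 and 49.4 RPKM, and OPR7, the reductase that acts later, at 30.9 and 24.4 RPKM. The receptor gene COI1b stood at 52.0 and 103.3 RPKM, 1.97-fold, and COI1a at 27.7 and 25.5 RPKM. OPR1 stood at 21.3 and 25.7 RPKM in shoots and at 1.6 and 397.5 RPKM in roots.

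Among ethylene genes 3 of 6 were higher and none lower, against 9.38% and 12.6% of all loci, with a median of 1.07. Of the 6, ETR3, ACS2 and EIL1 reached 5 RPKM only in the treated library, and 1 of the other 3 was higher. The median was 0.60 with a minimum of 1 RPKM, 0.73 with one of 20 RPKM or with a pseudocount of 5, and 0.45 over all 9 loci of the list, names not checked included. ETR3 (LOC_Os02g57530), an ethylene receptor, stood at 3.6 and 17.9 RPKM, 4.11-fold higher, and at 12.4, 14.0 and 8.6 RPKM in the others. The untreated library was the lowest of the 5. ETR2, a further receptor, stood at 10.2 and 33.5 RPKM, 3.08-fold higher, with 11.4, 26.2 and 17.2 RPKM in the others. ACS2, which makes the ethylene precursor, stood at 2.6 and 8.6 RPKM, 2.67-fold higher, with 2.4, 3.6 and 2.0 RPKM in the others. ACO1, the last enzyme, stood at 40.0 and 35.5 RPKM. In roots ACS2 went from 17.7 to 280.7 RPKM and ETR3 from 10.4 to 1.0 RPKM.

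Other hormones gave single genes. GH3-2 (LOC_Os01g55940), an enzyme that couples auxin to amino acids, stood at 2.0 and 16.6 RPKM, 5.87-fold higher, and at 0.9, 0.9 and 1.0 RPKM in the others, so that the 80 µM 6 h library stood apart from the other 4. GH3-8 stood at 7.7 and 4.4 RPKM and the auxin exporter gene PIN1B at 36.0 and 52.2 RPKM. Among 5 cytokinin genes the response regulator RR6 was higher (4.8 and 14.1 RPKM, 2.60-fold), and RR2 (10.6 and 3.2 RPKM, 2.76-fold) and RR1 (5.4 and 1.8 RPKM, 2.29-fold) were lower. RR6 reached 5 RPKM only in the treated library, and RR2 and RR1 only untreated. The 2 cytokinin genes at that level in both stayed within 2-fold. SD1, a gibberellin synthesis gene that sets rice plant height, stood at 2.1 and 7.4 RPKM, 2.71-fold higher, with 6.7, 4.8 and 6.7 RPKM in the others. Like GH3-2, SD1 reached 5 RPKM in the compared pair only in the treated library. The gibberellin receptor gene GID1 (96.1 and 87.9 RPKM) and the growth repressor gene SLR1 (97.5 and 115.9 RPKM) stayed within 2-fold.

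Lipid metabolism is named in the series title. SSI2 (LOC_Os01g69080), a plastid desaturase of stearic acid, stood at 51.9 and 17.6 RPKM, 2.84-fold lower, and at 50.3, 18.8 and 76.0 RPKM in the others. Its 80 µM 6 h level was near that of the library labelled 20 µM 24 h. PLD1, a phospholipase D gene, stood at 85.2 and 109.5 RPKM.

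**Figure D3:**
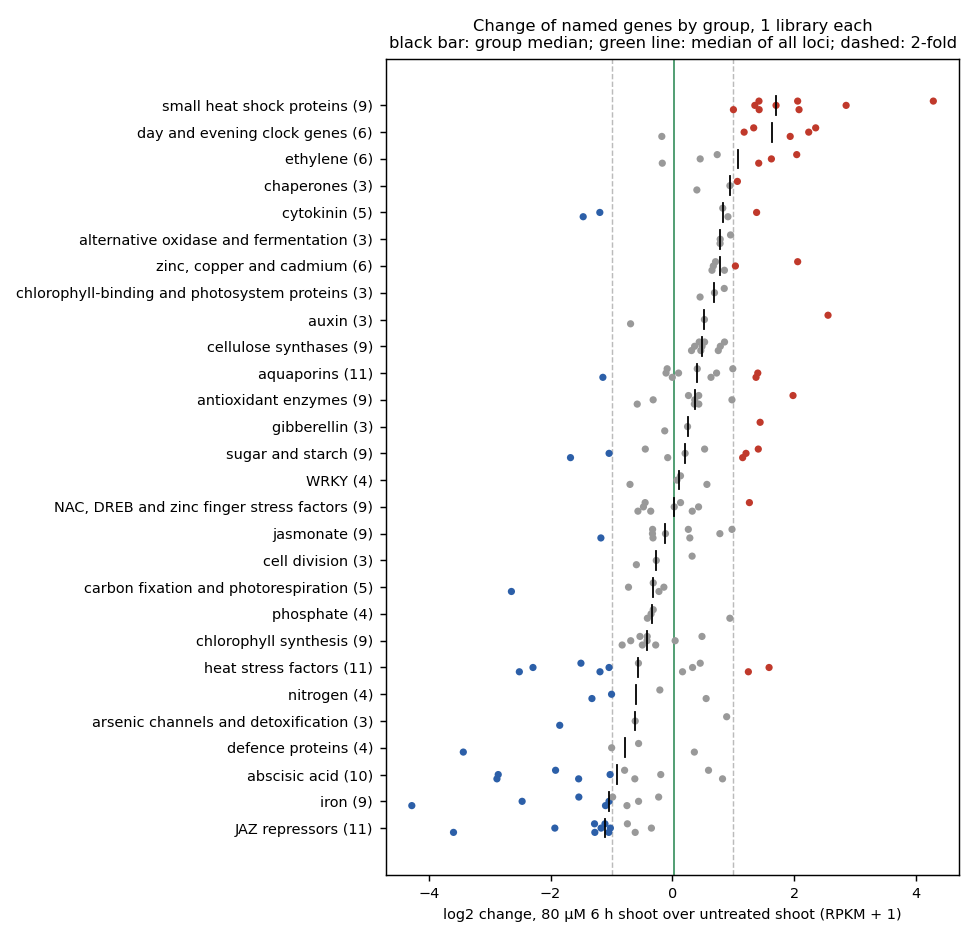
Log2 change of each named gene between 80 µM 6 h and untreated shoots, by group, with the number of genes considered in brackets, 1 library each. Black bars are group medians, the green line is the median of all loci and dashed lines mark 2-fold; small heat shock proteins lie at or beyond the 2-fold line on the right, and most JAZ repressors beyond it on the left.

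Most stress transcription factors stayed within 2-fold, as did 78.0% of all loci. None of 4 WRKY genes was higher or lower, with WRKY76 at 152.4 and 93.6 RPKM and WRKY62 at 47.3 and 51.9 RPKM. Of 9 NAC, DREB and related genes, 1 was higher and none lower, with a median of 0.03. NAC4 stood at 10.8 and 27.3 RPKM, 2.40-fold higher, with 24.5, 44.8 and 14.6 RPKM in the others. NAC6 (138.3 and 173.4 RPKM) and DREB2A (19.1 and 19.5 RPKM) stayed within 2-fold.

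Of 9 antioxidant genes, 1 was higher and none lower, against 9.38% and 12.6% of all loci. CATA (LOC_Os02g02400), a catalase gene, stood at 91.4 and 363.0 RPKM, 3.94-fold higher, and at 99.7, 402.2 and 42.8 RPKM in the other shoot libraries. It was high in the 2 libraries with clock readouts of 0.36 and lower in the other 3. CATB stood at 25.9 and 51.9 RPKM, 1.97-fold, with 26.7, 48.4 and 6.8 RPKM in the others. The other 7, ascorbate peroxidases and superoxide dismutases, stayed within 2-fold, among them APX2 at 91.9 and 61.2 RPKM and SODA, the mitochondrial dismutase, at 28.9 and 39.3 RPKM. The list median was 0.37.

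Alternative oxidase bypasses part of the respiratory chain and is induced by many stresses. AOX1A stood at 8.3 and 17.0 RPKM, 1.94-fold, with 5.1, 12.3 and 5.6 RPKM in the others, and was highest at 80 µM and 6 h. The fermentation genes ADH1 (32.7 and 56.9 RPKM) and PDC2 (36.6 and 63.7 RPKM) were 1.72-fold above untreated, so none of the 3 passed 2-fold.

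Defence genes had 1 of 4 lower and none higher. CHT8 (LOC_Os10g39680), a chitinase gene, stood at 9.8 RPKM untreated and was listed at 0 at 80 µM and 6 h, with 10.9, 1.2 and 1.0 RPKM in the others. CHT1 stood at 87.3 and 43.2 RPKM, just within 2-fold, and PBZ1 at 6.5 and 4.1 RPKM. None of 9 genes of the diterpenoid phytoalexin clusters reached 5 RPKM in either library.

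Chlorophyll-binding and chlorophyll synthesis genes with a checked name stayed within 2-fold, as did 78.0% of all loci. With names not checked included, 1 of 12 chlorophyll-binding and photosystem loci and 2 of 12 chlorophyll synthesis loci were lower. The 3 chlorophyll-binding protein genes had a median of 0.69 and none passed 2-fold, with CAB1R at 191.3 and 345.5 RPKM and RCABP89 at 355.1 and 486.3 RPKM. None of 9 chlorophyll synthesis genes passed 2-fold either, with a median of −0.42. PORA, which makes chlorophyllide in light, stood at 237.6 and 332.7 RPKM and at 2.3 RPKM at 80 µM and 24 h, and CHLI, a magnesium chelatase subunit, at 66.9 and 37.3 RPKM. The chlorophyll breakdown genes NYC1 (32.0 and 18.0 RPKM) and SGR (29.1 and 26.0 RPKM) stayed within 2-fold.

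Among genes of carbon fixation and photorespiration, 1 of 5 was lower, against 12.6% of all loci, and all 5 had a negative change. With names not checked included, 3 of 12 were lower. CFBP1 (LOC_Os01g64660), a cytosolic fructose-1,6-bisphosphatase of sucrose synthesis, stood at 102.1 and 15.5 RPKM, 6.25-fold lower, and at 142.0, 37.1 and 291.5 RPKM in the others. It followed the order of LHY among the shoot libraries except that 80 µM 6 h was lowest. GLO1, a glycolate oxidase gene, stood at 148.1 and 89.4 RPKM, and the plastid glutamine synthetase gene GLN2 at 89.0 and 71.3 RPKM.

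Of 9 sugar genes, 3 were higher and 2 lower, against 9.38% and 12.6% of all loci. One higher gene, SWEET11, reached 5 RPKM only in the treated library, and both lower genes only untreated. Of the 6 at that level in both libraries, 2 were higher and none lower. SUS1 (LOC_Os03g28330), a sucrose synthase, stood at 75.2 and 201.2 RPKM, 2.65-fold higher, and at 181.7, 204.1 and 0.6 RPKM in the others. SUS2 stood at 24.3 and 55.2 RPKM, 2.22-fold higher, with 33.5, 72.0 and 7.9 RPKM in the others. SWEET11, a sucrose exporter gene, stood at 2.9 and 8.0 RPKM, 2.31-fold higher. SWEET14 stood at 12.4 and 3.2 RPKM, 3.19-fold lower, with 1.9, 6.1 and 1.4 RPKM in the others, and the amylase gene RAMY3D at 6.2 and 2.5 RPKM, 2.06-fold lower. SUT1, which loads sucrose, stood at 25.4 and 24.0 RPKM.

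Nitrogen assimilation had 2 of 4 lower (12.6% of all loci) and none higher, and both lower genes reached 5 RPKM only untreated. The median was −0.60, and 0.17 over the 2 at 20 RPKM or more. NIA1, a nitrate reductase gene, stood at 6.5 and 2.0 RPKM, 2.50-fold lower, with 6.2, 1.9 and 58.4 RPKM in the others. GLN1-2, a cytosolic glutamine synthetase gene, stood at 8.4 and 3.7 RPKM, 2.00-fold lower. AMT1-1, an ammonium transporter gene, stood at 49.0 and 42.3 RPKM, and 6 members did not reach 5 RPKM.

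Water channels had 2 of 11 higher and 1 lower, against 9.38% and 12.6% of all loci, with a median of 0.41. Counts this small do not set the group apart. TIP1-1 (LOC_Os03g05290), a channel of the vacuolar membrane, stood at 173.0 and 458.1 RPKM, 2.64-fold higher, and at 247.2, 397.0 and 133.9 RPKM in the others. TIP2-2 stood at 156.1 and 405.3 RPKM, 2.59-fold higher, with 269.1, 399.5 and 44.4 RPKM in the others. PIP1-3 stood at 62.8 and 27.9 RPKM, 2.21-fold lower, with 20.5, 12.2 and 44.8 RPKM in the others. The plasma membrane channels PIP2-6 (204.8 and 338.8 RPKM), PIP1-2 (179.3 and 278.4 RPKM) and PIP1-1 (194.8 and 208.8 RPKM) stayed within 2-fold. In roots at the same dose and hour 13 of 14 water channels were lower and none higher, against 48.7% of all root loci lower, and 5 of the 14 reached 5 RPKM only untreated.

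Cellulose synthases, which make cell wall glucan at the plasma membrane, all had small positive changes. None of 9 passed 2-fold, all 9 were above untreated, and the changes ran from 0.31 to 0.85 on the log2 scale with a median of 0.49. CESA1 stood at 49.8 and 72.2 RPKM with 123.0, 96.3 and 29.6 RPKM in the others, and CESA9 at 39.1 and 66.5 RPKM with 53.6, 100.9 and 18.4 RPKM. In roots all 9 were lower, against 48.7% of root loci, with a median of −3.78, among them CESA1 at 118.6 and 7.7 RPKM. Of these 9, 6 reached 5 RPKM only in untreated roots, and the 3 at that level in both root libraries were all lower. Of 3 cell division genes none passed 2-fold in shoots (CYCB1-1 at 9.8 and 12.5 RPKM, PCNA at 19.2 and 15.8 RPKM, CDKB2-1 at 26.6 and 17.3 RPKM). In roots 5 of 5 were lower, against 48.7% of root loci, but all 5 reached 5 RPKM only in untreated roots.

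The shoot and root pairs at 80 µM and 6 h share no library and can be set side by side. Over the 10920 loci considered in both, 278 were higher in both tissues and 462 lower in both. A further 371 were higher in shoots and lower in roots, and 223 lower in shoots and higher in roots. Pearson's correlation of the changes was 0.05 over these loci, which are not independent replicates. The small heat shock proteins were higher in both tissues, and the nicotianamine synthase NAS1 and the iron regulator IRO3 lower in both.

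**Figure D4:**
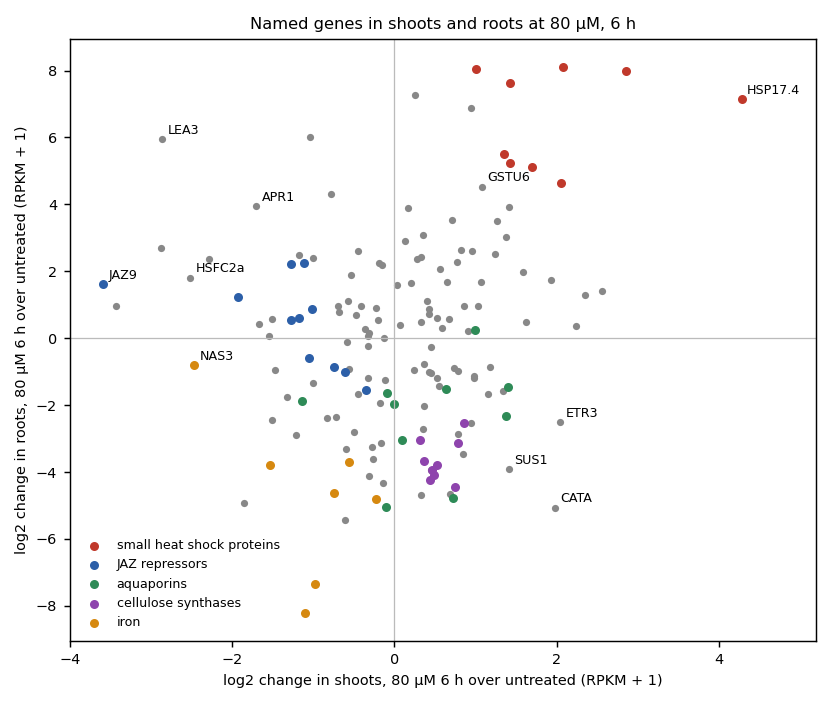
Log2 change at 80 µM 6 h over untreated in shoots (horizontal) and roots (vertical) for named genes considered in both, 1 library per group. Small heat shock proteins lie high on the right, cellulose synthases and most aquaporins below zero for roots at small shoot changes, and LEA3, APR1 and JAZ9 on the left above zero.

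Among loci to which the sources used here give no name, LOC_Os04g59200 had the largest rise. It stood at 1.7 RPKM untreated and 81.5 RPKM at 80 µM and 6 h, 4.93 on the log2 scale, and at 34.1, 74.4 and 41.9 RPKM in the other shoot libraries, all above untreated. LOC_Os11g10590 was listed at 0 untreated and stood at 26.7 RPKM at 80 µM and 6 h, was listed at 0 in the other 3 shoot libraries, and stood at 72.1 RPKM in untreated roots. The largest falls were those of LOC_Os07g08160, at 67.9 RPKM untreated with 31.0 RPKM, a listed 0 and 2.0 RPKM in the other libraries, and LOC_Os10g01080, at 60.6 RPKM with 66.3, 2.7 and 205.4 RPKM. Both were listed at 0 at 80 µM and 6 h.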

How the data were processed

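Oligo(dT)-selected RNA was copied with random hexamers and read as 75-nt pairs on an Illumina instrument, per the labels' protocols. For each mRNA library the authors deposited RPKM values, rounded to 1 decimal. BWA is named per the submitters' processing notes. The sources used here give no version, build, annotation or counting tool, so how reads of near-identical or overlapping genes were split is unknown.

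The tables hold MSU identifiers without names. The reference (RefSeq ASM3414082v1) does not list them, so names for 409 identifiers in 37 lists were written from general knowledge, and 257 whose name the reference places on the same chromosome are printed. Of these, 249 have a single place there, and these run in the order of the identifiers. Lists are counted over such names. Of them, 187 reached 5 RPKM, with 33 higher and 37 lower.

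From each list up to 4 members with the largest rise or fall and the highest member were to be named, plus the 15 largest rises and falls over all lists, 2 unnamed loci each way, and clock, tissue and threshold genes. Further members given with their values fall outside this rule and were chosen after their values were seen. Members and lists were chosen with earlier results of these data known. With 1 library per group, counts and medians replaced tests. Python 3.11.15, numpy 2.4.6, pandas 2.3.3 and matplotlib 3.10.9 were used. The counting was tried on untreated values of 20 RPKM or more, some of them changed exactly 4-fold without noise. That checks the code only, and covers neither low values nor noise between libraries. Promoter motifs were not searched.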

Additional observations from a re-analysis of the deposited data

Results flagged for a closer look

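For 18 named genes the change at 80 µM and 6 h went past 2-fold in opposite directions in shoots and roots, and for 21 it did so in shoots at 6 h and at 24 h. With 1 library per group, none of these differences was tested. The 6 h and 24 h shoot comparisons share the untreated library. Where a library is listed at 0, the size of the log2 change is set by the pseudocount of 1.

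Among genes lower in shoots and higher in roots, the log2 changes were −2.29 and 2.36 for HSFA2d, −2.51 and 1.81 for HSFC2a, −1.71 and 3.94 for APR1, and −1.18 and 2.50 for AOS2. They were −3.59 and 1.61 for JAZ9, −1.27 and 2.21 for JAZ11, −1.11 and 2.24 for JAZ12, and −1.93 and 1.24 for JAZ13. LEA3 had −2.86 and 5.95, RAB16C −2.88 and 2.70 (untreated roots listed at 0), and RAMY3D −1.04 and 6.02. Higher in shoots and lower in roots were ETR3 at 2.04 and −2.51, CATA at 1.98 and −5.07 (treated roots listed at 0), PRR37 at 1.33 and −1.58, TIP1-1 at 1.40 and −1.47, TIP2-2 at 1.37 and −2.33, SUS1 at 1.41 and −3.91, and SUS2 at 1.15 and −1.67.

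Higher at 6 h and lower at 24 h in shoots were HSP18.0 at 1.35 and −2.86, HSP17.9A at 1.70 and −1.27, HSP17.7 at 1.42 and −1.36, HSP24.1 at 2.05 and −1.68, and GSTU6 at 1.08 and −1.35. The same held for CATA at 1.98 and −1.08, GI at 2.35 and −2.25, PRR1 at 2.24 and −1.49, PRR37 at 1.33 and −1.39, and PRR95 at 1.93 and −2.19. TIP2-2 had 1.37 and −1.79, SUS1 1.41 and −5.57, and SUS2 1.15 and −1.51. Lower at 6 h and higher at 24 h were HSFA2d at −2.29 and 1.06, NAS1 at −1.10 and 1.16, VIT1 at −1.04 and 1.03, RR2 at −1.47 and 1.77, and CFBP1 at −2.64 and 1.50. LHY had −1.21 and 1.11, NIA1 −1.32 and 2.99, and GLN1-2 −1.0 and 1.14. The clock readout was 3.05 in untreated shoots, 0.36 at 6 h and 5.35 at 24 h, and its part in these differences was not tested.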

How the results depend on the processing

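The counts of 1307 higher and 1752 lower loci moved with the filter and with a large pseudocount. They were 2309 and 3253 with a filter of 1 RPKM and also with none, 436 and 696 with a filter of 20 RPKM, and 600 and 1017 with a pseudocount of 5. Fewer loci entered at 20 RPKM (4879) and more at 1 RPKM (22378). With a pseudocount of 0.1 they were 1531 and 1991, and after scaling by the median ratio of 1.02 they were 1188 and 1814. Keeping only loci at 1 RPKM or more in both libraries, a choice made after seeing the data, gave 1187 and 1520. More loci were lower than higher in each of these settings.

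With a pseudocount of 5, 9 of 33 higher and 13 of 37 lower named genes were no longer past 2-fold, among them ZIP7 at 0.63, ACS2 at 0.84, HSFA4b at 0.96, JAZ6 at −0.97 and NIA1 at −0.72, and the ethylene and iron medians came to 0.73 and −0.74. With a minimum of 20 RPKM, 4 list medians moved by over 0.5: heat stress factors from −0.56 to 0.33, phosphate from −0.33 to 0.26, nitrogen from −0.60 to 0.17 and abscisic acid from −0.91 to −1.54. Without a minimum the heat stress factors came to 0.04 and cytokinin genes to 0.0. Against a pseudocount of 1, the log2 changes of 24 of 187 named genes moved by more than 0.5 with a pseudocount of 5 and of 4 with one of 0.1. With a pseudocount of 5 the small heat shock genes HSP16.9B and HSP26.7 came to 0.90 and 0.58, below 2-fold, and the other 7 stayed past it. Taking in list members whose names were not checked, also chosen after seeing the data, moved the medians of chaperones to 0.33, arsenic channels to 0.04 and ethylene genes to 0.45.

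No paired analysis was possible because each group has 1 library and every label carries replicate number 1. No replicate exists to leave out. The planned promoter search was not run, since no promoter sequences were at hand.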

Other observations

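Neighbouring loci that changed together were counted, without an expected number to set the counts against. Counting runs of at least 4 neighbours among the loci considered, all 2-fold or more in 1 direction, there were 8 runs of higher loci, the longest of 4, and 11 runs of lower loci, the longest of 5. None of these runs held a gene with a checked name.

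Across all 57624 loci, the 80 µM 6 h shoot library had a Pearson correlation of log2(RPKM + 1) of 0.950 with the library labelled 20 µM 24 h, 0.938 with untreated shoots, 0.926 with the library labelled 20 µM 6 h and 0.841 with shoots at 80 µM and 24 h. Loci are not independent replicates, and these values describe the libraries.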
